A study of Homo sapiens with 18 samples.

Results

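The leader cells of the third passage were compared with those of the second passage in a series in which human MiaPaCa-2 cells were passed repeatedly through the sciatic nerve. The members are the 3 passage 3 and 3 passage 2 leader libraries, 6 of the 18 libraries of the series, chosen by their labels. MiaPaCa-2 is an established line from a human pancreatic ductal carcinoma that grows with little epithelial adhesion. Leader is the labels' word for the cells collected for the next round, which were grown in culture and injected again, and each passage is 1 such cycle. The labels give both groups the same line, a genotype of WT and a treatment of in vivo passage, 2 or 3, so that passage number is the 1 labelled difference between them. The other 4 groups hold 3 libraries each: uninjected parental cells, laggers of passage 1, and the leaders of passage 1 and of passage 4. The sources used here do not give the host animal, or say whether RNA was taken at harvest or after regrowth. Nor do they say that the replicates of a passage came from different cultures or hosts. The p-values therefore rest on the variation among these libraries, which may be technical.

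Perineural invasion is the growth of tumour cells along nerves, a common feature of pancreatic cancer. Cells that travel along a nerve meet Schwann cells, laminin-rich basement membrane and guidance cues such as semaphorins, ephrins and Slit proteins, and move through integrin adhesion and actin remodelling. Heat shock chaperones and immediate early transcription factors are short-lived response genes that follow the state of a cell within minutes to hours, while keratins, claudins and imprinted genes tend to mark more lasting states.

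Gene totals ran from 20837228 to 27302253 counts in passage 2 and from 17743014 to 29140124 in passage 3. The line's markers were in place: in these 6 libraries KRT8, KRT18 and VIM were between 2048 and 12203 CPM (a gene's share of the library's counts, scaled to a common depth), and CDKN2A and MTAP, which the line has lost, had no counts. Passage 3 replicate 2 stood apart, with 24.8% of its entries unaligned and 14.1% outside genes, against 6.51% to 11.2% and 3.95% to 4.95% in the other 5. It also held 2.04% of its gene counts in the haemoglobin genes, almost all HBB, while HBA1 was at 0.0533 CPM and HBB was at most 0.764 CPM in the other 5. The first principal component of the 6 libraries, with 33.8% of the variance, placed the passages apart, from -39.1 to -27.5 in passage 2 and from 2.75 to 76.7 in passage 3, with replicate 2 the farthest. Marker lists of neurons, endothelial cells, and adipocytes and muscle summed to at most 13.9 CPM in each library. The list of 12 Schwann cell markers was higher in passage 3, at 72.7, 82.7 and 57.4 CPM in its replicates 1, 2 and 3 against 40.6, 53.9 and 41.1 in those of passage 2. MBP, the myelin basic protein gene, made up most of that difference. It was at 36.1, 28.2 and 15.3 CPM in passage 3 against 4.77, 5.02 and 3.43 in passage 2. The uninjected parental line stood at 214 ± 18.6 CPM for MBP (SD, n = 3). Of the 6 markers that could be tested, every passage 3 library lay above every passage 2 library in 2, MBP and ERBB3. All lay below in 1, NGFR. The shares over all genes were 8.12% and 6.12%. PMP22 and PRX overlapped between passages. FOXD3, a marker of the Schwann cell lineage, had no counts in the 6 libraries, and SOX10 and S100B were at most 0.141 CPM. From 3 to 5 of the 12 markers were at 0 in each library. The fibroblast list, whose genes this mesenchymal line shares in part, summed to 828 to 1519 CPM in passage 2 and 552 to 1341 CPM in passage 3. The leukocyte list summed to 7.92 to 16.6 CPM except in passage 3 replicate 3, where it reached 162 through CD79A. CD79A was at 4.48, 3.47 and 151 CPM in the 3 passage 3 libraries, and at 260, 385 and 675 CPM in the 3 passage 4 leader libraries. High CD79A was thus not confined to 1 library of the series, and its source was not tested.

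In the main fit, the step from passage 2 to passage 3 carried few called changes. There 2 of 16187 genes tested (0.0124%) had an adjusted p under 0.05 in edgeR's quasi-likelihood test. MYEOV rose and HSPA6 fell. At an unadjusted p under 0.05, 674 genes were higher in passage 3 (4.16% of those tested) and 355 were lower (2.19%). In 1314 genes every passage 3 library lay above every passage 2 library (8.12%), and in 990 every one lay below (6.12%). In the same fit the step from passage 1 to passage 2 gave 579 called genes and the step from passage 3 to passage 4 gave 225, and these share the passage 2 and passage 3 libraries with the comparison described here. Whether the steps differ in size was not tested. The number called at the step described here depended on the fit. It was 143 with DESeq2, 24 with limma-voom, 111 with no filter on low counts and 113 with only the compared libraries. Each library is bulk RNA, in which fewer cells of a type and less RNA per cell cannot be told apart.

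MYEOV, a gene first found as overexpressed in myeloma and often amplified with its neighbours in carcinomas, was at 4.11, 7.41 and 7.74 CPM in the 3 passage 2 libraries. It was at 62.2, 57.2 and 24.4 CPM in the 3 passage 3 libraries. The groups did not overlap, and replicate 3 was the lowest of passage 3. The log2 fold change was 2.90 ± 0.42 (SE), with an adjusted p of 0.0319 in edgeR. The passage 2 mean of 6.42 ± 2.01 (SD, n = 3) was the lowest of the 6 groups. The parental line stood at 20.5 ± 3.19, passage 1 leaders at 9.59 ± 2.57 and passage 4 leaders at 30.6 ± 9.7 (SD, n = 3 each).

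HSPA6 encodes a strictly stress-inducible member of the HSP70 chaperones. It was at 233, 294 and 347 CPM in the passage 2 libraries and 42, 59.6 and 58.3 CPM in the passage 3 libraries. All 3 passage 3 libraries lay close together and far below passage 2. The log2 fold change was -2.45 ± 0.36 (SE), with an adjusted p of 0.0319 in edgeR. Its level was low in the parental line (2.67 ± 0.994, SD, n = 3) and high in passage 1 laggers (1839 ± 714) and passage 1 leaders (429 ± 126). Passage 4 leaders were back at 302 ± 113, so passage 3 was the lowest of the 5 injected groups. HSPA6 has a near-identical neighbour, HSPA7, annotated as a pseudogene, between which reads can be split. HSPA7 was at 2.58, 3.19 and 3.87 CPM in passage 2 and 0.387, 0.32 and 0.958 CPM in passage 3, on the same side as HSPA6, with an adjusted p of 0.0844 in edgeR. Both calls rest on 3 libraries a group: leaving out any 1 of the 6 libraries left neither gene called, except that MYEOV still passed without passage 3 replicate 3.

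**Figure D1:**
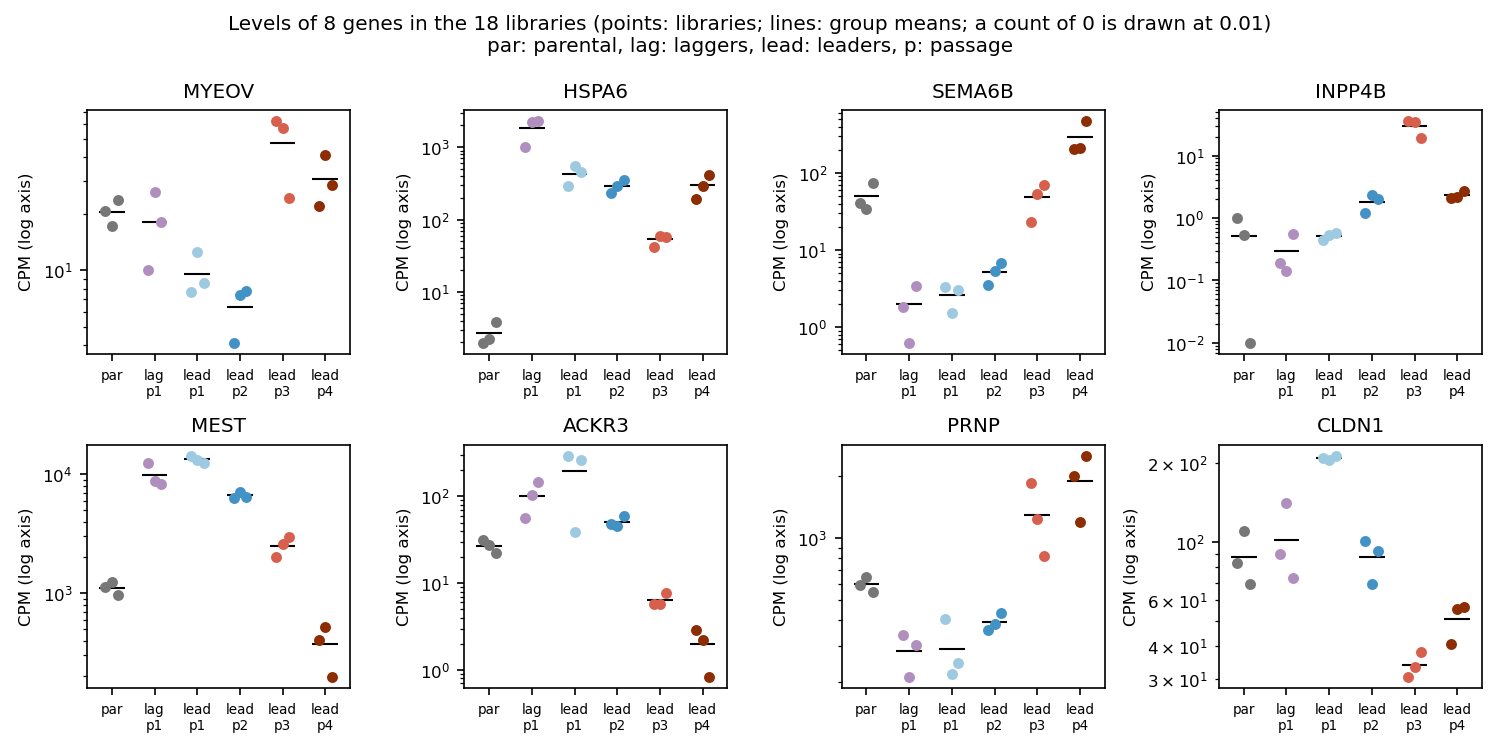
Levels of 8 genes in CPM on log axes in all 18 libraries, with 1 point per library and a line at each group mean; a count of 0 is drawn at 0.01. MYEOV rises and HSPA6 falls between passage 2 and passage 3, and the other 6 genes, which did not pass the test, are separated between the same 2 groups.

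The other heat shock chaperones leaned the same way as HSPA6. Of the 17 genes of this list, which hold client proteins in a folded state, 16 had a negative log2 fold change, and the median was -0.38 against 0.01 over all genes tested. In 10 of the 17 the replicates did not overlap, all lower in passage 3, where the share over all genes was 6.12%. HSPA6 is the 1 member called, and 5 members were lower at an unadjusted p under 0.05. Without passage 3 replicate 2, where fewer libraries leave 13.1% of all genes separated on the lower side, 12 of the 17 were, and the median was -0.22.

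Among the inducible members, DNAJB1, a co-chaperone that feeds clients to HSP70, was at 977, 1254 and 1363 CPM in passage 2 and 581, 786 and 673 CPM in passage 3. BAG3, a nucleotide exchange factor of HSP70, was at 221, 246 and 255 and 118, 159 and 115 CPM. HSPA1B, a stress-inducible HSP70, was at 118, 124 and 162 and 61.9, 59.5 and 92.5 CPM. In all 3 genes each passage 3 library lay below each passage 2 library, with log2 fold changes of -0.82 ± 0.19, -0.88 ± 0.21 and -0.92 ± 0.23 (SE) and adjusted p-values of 0.148, 0.172 and 0.212 in edgeR, so none passed. HSPA1A, a near-identical copy of HSPA1B with which it can share reads, was at 48, 59.5 and 58.2 and 28.6, 42.1 and 34.8 CPM, also separated. At passage 4 these 4 genes were higher again, with means of 1262 CPM for DNAJB1, 204 for BAG3, 196 for HSPA1B and 78.3 for HSPA1A. The member with the most negative value, the small chaperone CRYAB, rests on very few counts, with 0.143, 0.141 and 0.516 CPM in passage 2. HSF1, the factor that drives the inducible members, had a log2 fold change of 0.08 ± 0.25 (SE), and its replicates overlapped.

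Heat shock factor binds inverted repeats of a short element, so promoters of 3 members are shown with each match to GAANNTTC or TTCNNGAA in capitals. Each motif is its own reverse complement, so 1 search covers both strands, and matches may overlap. The windows are from RefSeq on GRCh38.p14 and run from 250 bases before the annotated start to 50 after it. HSPA6 lies on the plus strand at chr1:161524290-161524589, HSPA1B on the plus strand at chr6:31827488-31827787, and the DNAJB1 window printed, 1 of 3 for that gene, on the minus strand at chr19:14518348-14518647.
HSPA6: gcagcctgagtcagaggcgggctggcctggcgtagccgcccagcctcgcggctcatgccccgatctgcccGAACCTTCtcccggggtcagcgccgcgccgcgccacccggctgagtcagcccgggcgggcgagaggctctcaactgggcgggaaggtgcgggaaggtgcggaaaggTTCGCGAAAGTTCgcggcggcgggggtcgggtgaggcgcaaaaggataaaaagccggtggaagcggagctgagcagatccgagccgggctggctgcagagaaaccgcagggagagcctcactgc
HSPA1B: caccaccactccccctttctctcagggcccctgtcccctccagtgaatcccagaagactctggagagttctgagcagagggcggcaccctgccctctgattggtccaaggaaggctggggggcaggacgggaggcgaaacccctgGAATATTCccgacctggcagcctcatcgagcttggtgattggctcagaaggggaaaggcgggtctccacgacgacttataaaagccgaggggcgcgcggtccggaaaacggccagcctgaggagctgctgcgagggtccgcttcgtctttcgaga
DNAJB1: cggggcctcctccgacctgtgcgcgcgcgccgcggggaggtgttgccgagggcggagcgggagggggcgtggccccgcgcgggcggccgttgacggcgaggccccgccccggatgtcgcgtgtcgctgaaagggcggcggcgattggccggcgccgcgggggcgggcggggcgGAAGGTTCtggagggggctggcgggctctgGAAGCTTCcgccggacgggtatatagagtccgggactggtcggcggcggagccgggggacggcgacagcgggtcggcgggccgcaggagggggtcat
The HSPA6 window holds 3 matches between positions -180 and -62 from the start, with 2 of them overlapping in 1 run. The HSPA1B window holds 1, at -105 to -98, and the printed DNAJB1 window 2, between -77 and -40. The DNAJB1 windows not printed hold 0 and 1, and which start is used in this line is not known here. At least 1 match was present in 13.5% of all 35116 promoter windows and in 12 of the 21 windows of the list, and the BAG3 window held 0. A match is a description of the letters and says nothing of binding in these cells.

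**Figure D2:**
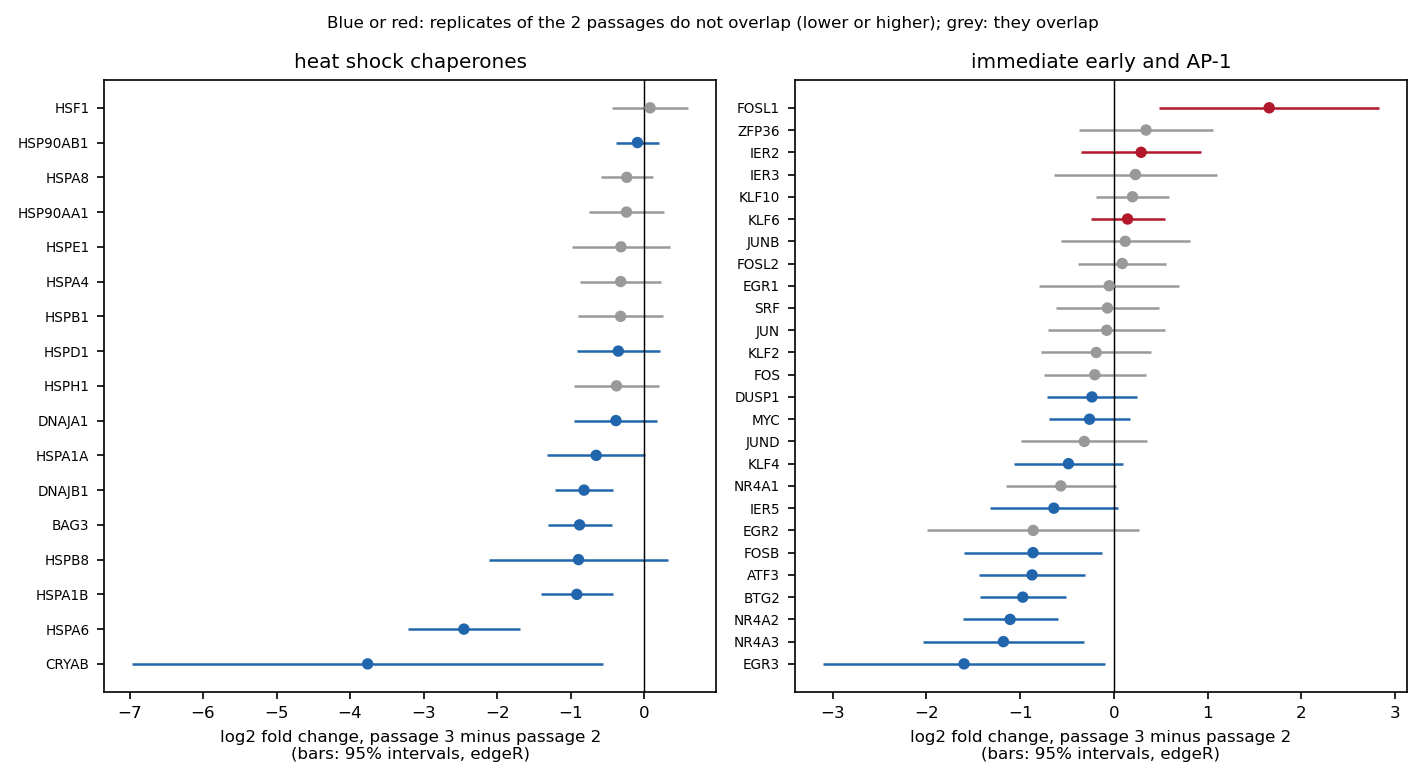
Log2 fold changes of the tested heat shock and immediate early genes, passage 3 minus passage 2, with 95% intervals derived from the edgeR F statistic. Coloured points mark genes whose replicates did not overlap. In the heat shock list 10 of 17 genes are separated on the lower side and 0 on the higher side, and in the immediate early list 10 of 26 are lower and 3 higher.

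Immediate early and AP-1 genes, the transcription factors that respond first to growth and stress signals, were mostly lower in passage 3. Of 26 genes, 18 had negative log2 fold changes, the median was -0.22, and none passed the adjusted test. In 10 genes the replicates were separated on the lower side, against 6.12% over all genes, and in 3 on the higher side, against 8.12%. NR4A2, an orphan nuclear receptor, was at 130.4, 118 and 159 CPM in passage 2 and 50.5, 77.1 and 61.3 CPM in passage 3. BTG2, an antiproliferative gene induced with them, was at 204, 147 and 138 and 65.4, 96.2 and 88.1 CPM, and ATF3, a stress-induced factor, at 77.2, 96.1 and 114 and 53.3, 44.6 and 58.8 CPM. None of the 3 genes overlapped between passages, and their adjusted p-values in edgeR were 0.135, 0.144 and 0.403. NR4A3 (-1.18 ± 0.40, SE) and FOSB (-0.86 ± 0.35) were lower too. At passage 4 the mean was 50.9 CPM for NR4A2, 78.1 for BTG2 and 52.2 for ATF3, near their passage 3 levels. FOSL1, the AP-1 subunit of sustained ERK signalling, stood on the other side. It was at 25.1, 23.8 and 40.3 CPM in passage 2 and 126, 91.6 and 63.3 CPM in passage 3, a log2 fold change of 1.66 ± 0.55 (SE) with an adjusted p of 0.498 in edgeR.

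Below the threshold, the genes with the smallest p-values among those higher in passage 3 included a guidance cue and several membrane and cytoskeletal genes. The 7 named first had an adjusted p of 0.0554 in edgeR, so none passed, and in each every passage 3 library lay above every passage 2 library. SEMA6B, a transmembrane semaphorin, was at 3.48, 5.34 and 6.82 CPM in passage 2 and 23.4, 53.6 and 69.7 CPM in passage 3, with a log2 fold change of 3.22 ± 0.55 (SE). The passage 4 mean was 295 ± 149 CPM (SD, n = 3), and the parental mean was 49.7 ± 21.4. INPP4B, a phosphatase that acts on phosphoinositides, was at 1.19, 2.34 and 1.99 and 35.4, 34.3 and 19.4 CPM, with a log2 fold change of 4.00 ± 0.68. Its other 5 group means were between 0.298 and 2.34 CPM, so passage 3 alone stood high. CRABP2, which carries retinoic acid to its nuclear receptor, was at 0.334, 0.0938 and 0.184 and 3.43, 11.7 and 3.3 CPM, with a log2 fold change of 4.88 ± 0.84. Its means were 4 CPM in passage 1 leaders and 18.1 in passage 4 leaders, so passage 2 was the lowest of the leader groups. The parental line and the passage 1 laggers were low too, with means of 0.405 and 0.689 CPM.

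PRNP, the cellular prion protein, was at 360.4, 383 and 435 CPM in passage 2 and 1863, 1245 and 818 CPM in passage 3, with a log2 fold change of 1.74 ± 0.32 (SE). PRND, the neighbouring prion-like gene, was named after its values were seen and was at 33.3, 66.2 and 61.7 and 698, 776 and 181 CPM. Both neighbours were higher in passage 3, PRND with an adjusted p of 0.136 in edgeR. AHNAK, a giant scaffold protein under the membrane, was at 133, 116 and 106 and 323, 367 and 244 CPM, with a log2 fold change of 1.39 ± 0.25. SVIL, the actin-binding supervillin, was at 37.1, 25.3 and 32 and 89.8, 71.5 and 64.2 CPM (1.26 ± 0.23), and TACC2, a centrosomal protein, at 39.3, 28 and 31.1 and 74.9, 78.8 and 56.6 CPM (1.10 ± 0.19). In AHNAK, SVIL and TACC2 the passage 4 means of 319, 83.7 and 58.7 CPM were near those of passage 3. PODXL, a sialomucin that loosens cell contacts, was also named after its values were seen. It was at 79.5, 56.6 and 58.8 CPM in passage 2 and 624, 733 and 649 CPM in passage 3, with a log2 fold change of 3.36 ± 0.61 (SE), and its adjusted p of 0.0554 in edgeR also missed the threshold.

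On the lower side the named genes that did not pass were CLDN1, MEST, ACKR3, SLC7A11, NR4A2, BTG2 and ZNF331, with adjusted p-values of 0.0554 to 0.146 in edgeR and no overlap between passages. CLDN1, a tight junction claudin, was at 101.4, 68.9 and 92.7 CPM in passage 2 and 30.5, 33.5 and 38.2 CPM in passage 3, with a log2 fold change of -1.36 ± 0.24 (SE). Its passage 1 mean was 209 ± 3.65 CPM (SD, n = 3), the highest of the 6 groups. ACKR3, a scavenging receptor for the chemokine CXCL12, was at 48.7, 46 and 59.3 and 5.75, 5.76 and 7.7 CPM, with a log2 fold change of -3.00 ± 0.58. The leader means stood in passage order, with 199 ± 139 CPM at passage 1 and 1.98 ± 1.06 at passage 4 (SD, n = 3 each), but 1 passage 1 library, at 38.9 CPM, lay below all 3 of passage 2. SLC7A11, the cystine importer that supplies glutathione synthesis, was at 16.7, 28.3 and 20.9 and 3.1, 3.52 and 9.65 CPM, with a log2 fold change of -2.00 ± 0.43. Its passage 4 mean was 2.37 CPM. ZNF331, an imprinted zinc finger gene, was at 14.8, 14 and 23.9 and 2.82, 5.65 and 6.54 CPM (-1.80 ± 0.41).

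MEST, an imprinted gene expressed from the paternal copy, was the most abundant of these. It was at 6356, 7125 and 6415 CPM in passage 2 and 2035, 2571 and 2948 CPM in passage 3, with a log2 fold change of -1.40 ± 0.26 (SE) and an adjusted p of 0.0643 in edgeR. The leader means were 13287 CPM at passage 1 and 374 at passage 4, so passage 3 lay between higher and lower neighbours.

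Readouts of ERK signalling were mostly higher in passage 3. Of 20 genes, 18 had positive log2 fold changes, the median was 0.31, and 7 were separated on the higher side, against 8.12% over all genes. MYEOV is in this list and is its 1 called gene. The list was drawn up with earlier results of these data known, so that call is not separate support for the lean. CCND1, the G1 cyclin, was at 139.9, 172 and 147 CPM in passage 2 and 262, 253 and 206 CPM in passage 3. DUSP6, the ERK phosphatase that ERK itself induces, was at 8.93, 7.36 and 9.88 and 16.9, 32.3 and 32.4 CPM, and SPRY4, a feedback inhibitor, at 138, 144 and 120.1 and 163, 252 and 216 CPM. All 3 were separated between passages, with adjusted p-values of 0.587, 0.735 and 0.82 in edgeR. HBEGF, a ligand of EGFR, went the other way (-0.82 ± 0.30, SE). Of 20 mitosis genes 18 were positive, with a median of 0.16. In 2 of them (10%) the replicates were separated on the higher side, near the 8.12% over all genes, and none passed. MKI67, the proliferation antigen, was at 81.6, 66.9 and 63.3 CPM in passage 2 and 119, 178 and 134 CPM in passage 3, with a log2 fold change of 1.02 ± 0.21 (SE) and an adjusted p of 0.0946 in edgeR. The other separated member was CENPF (0.51 ± 0.26), and CDK1 was one of 2 negative members (-0.50 ± 0.59). Without passage 3 replicate 2, 7 of the 20 mitosis genes were separated on the higher side and 0 on the lower. At that setting 13.2% and 13.1% of all genes were. Of 21 DNA replication genes 13 were positive, with a median of 0.03.

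Actin and motility genes leaned higher in passage 3. Of 40 genes 27 were positive, with a median of 0.16, and none passed the adjusted test. On the higher side 11 (27.5%) were separated, against 8.12% of all genes, and on the lower side 3 (7.5%), against 6.12%. CTTN, an organiser of branched actin, was at 82.1, 80.9 and 71.2 CPM in passage 2 and 120.2, 151 and 103 CPM in passage 3. VCL, the focal adhesion protein vinculin, was at 356, 341 and 321 and 450.3, 523 and 535 CPM, and ACTN1, the crosslinker alpha-actinin, at 272, 320.0 and 251 and 453, 492 and 361 CPM. These 3 were separated between passages, with adjusted p-values of 0.335, 0.591 and 0.735 in edgeR. PXN (0.63 ± 0.28), ACTN4 (0.62 ± 0.28) and CAPG (0.71 ± 0.30) were the other members with an unadjusted p under 0.05. Without passage 3 replicate 2, 2 members had such a p on the higher side in place of 6, while the share over all genes went from 4.16% to 2.62%. There 25 members were positive, and 12 were separated on the higher side and 7 on the lower, against 13.2% and 13.1% of all genes.

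Integrin and laminin genes split, with 13 of 23 positive and a median of 0.05. The 5 separated members (21.7%) were all higher, against 8.12% of all genes. ITGA3, the alpha subunit of a laminin receptor, was at 60.1, 99.6 and 86.9 CPM in passage 2 and 346, 368 and 286 CPM in passage 3. LAMA4, a laminin chain, was at 1.58, 2.63 and 1.7 and 19, 16 and 6.11 CPM, and LAMB2 at 7.64, 5.44 and 6.93 and 9.02, 17 and 14.4 CPM. The log2 fold changes were 2.02 ± 0.55, 2.80 ± 0.73 and 1.01 ± 0.40 (SE), and none passed, with adjusted p-values of 0.251, 0.227 and 0.671 in edgeR. ITGA3 stood at 449 ± 181 CPM in passage 4 (SD, n = 3), against 46.9 ± 11.3 in the parental line. ITGA2, the alpha subunit of a collagen receptor, was separated too, at 0.0477, 0.0469 and 0.0737 and 0.221, 1.07 and 1.09 CPM. The list's median was -0.12 without passage 3 replicate 3 and -0.04 without passage 2 replicate 3.

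Among 30 axon guidance genes 19 were positive, with a median of 0.10. On the higher side 5 (16.7%) were separated and on the lower 1 (3.3%), against 8.12% and 6.12% of all genes. Without passage 3 replicate 2, 16 of the 30 were positive, with a median of 0.04. At that setting 5 were separated on the higher side and 4 on the lower, against 13.2% and 13.1% of all genes. ROBO1, the receptor for Slit proteins, was at 19.3, 20.6 and 11.9 CPM in passage 2 and 45, 39.5 and 62.7 CPM in passage 3, with a log2 fold change of 1.51 ± 0.31 (SE) and an adjusted p of 0.11 in edgeR. EPHB2, an ephrin receptor, was at 12.1, 12.9 and 15.7 and 32.1, 40.5 and 20.4 CPM, and the secreted semaphorin SEMA3D was lower, at 148, 138 and 168 and 57.2, 28.1 and 124 CPM. Neither passed. PLXNB1, a semaphorin receptor, overlapped between passages (0.94 ± 0.41, SE). Of the 28 nerve ligands and receptors listed, 15 could be tested and 10 of them were negative. Besides ACKR3, the neurotrophin receptor NGFR was separated on the lower side, at 7.4, 15.1 and 7.56 and 4.48, 6.35 and 6.08 CPM, and the neuregulin receptor ERBB3 on the higher, at 3.39, 1.88 and 3.13 and 4.59, 10.7 and 5.42 CPM.

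Matrix genes held some of the widest differences with some of the widest errors. THBS1, an adhesive glycoprotein that activates TGF-beta, was at 113, 32 and 65 CPM in passage 2 and 0.221, 5.28 and 3.07 CPM in passage 3, with a log2 fold change of -4.61 ± 1.09 (SE). POSTN, periostin, was at 43.7, 15.8 and 88.9 and 1.94, 5.23 and 3.7 CPM (-3.77 ± 1.33). In both genes passage 2 was the group that stood high, since the passage 1 means were 4.18 CPM for THBS1 and 2.58 for POSTN. COL17A1, a hemidesmosome collagen, was higher, at 33.1, 68.3 and 53.1 and 96.3, 116 and 94.6 CPM. The collagen and matrix list as a whole had 8 of 23 genes positive and a median of -0.23, which became 0.12 without passage 2 replicate 2. Of 19 matrix protease and plasminogen genes 8 were positive, with a median of -0.10 that became 0.06 without passage 3 replicate 2. PLAU, the urokinase that activates plasminogen, was at 115, 208 and 205 and 539, 393 and 457 CPM, and the lysosomal protease CTSL at 179, 189 and 273 and 134, 138 and 150.4 CPM. PLAU was separated on the higher side and CTSL on the lower, and neither passed, with adjusted p-values of 0.76 and 0.662 in edgeR.

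Regulators of cell state lay on both sides, and none passed. Of 11 mesenchymal regulators 7 were positive, with a median of 0.25 that became -0.20 without passage 3 replicate 3. RUNX1, a transcription factor of the mesenchymal list, was at 14.1, 16.7 and 14.7 CPM in passage 2 and 40.1, 27 and 30.9 CPM in passage 3, with a log2 fold change of 1.11 ± 0.20 (SE) and an adjusted p of 0.0554 in edgeR. SNAI1, a repressor of epithelial genes, was lower at 27, 21.3 and 25.7 and 6.92, 18.5 and 13.2 CPM, and VIM, the intermediate filament of mesenchymal cells, was at 2830.5, 2423 and 2488 and 2233, 2362 and 2048 CPM. Both were separated on the lower side. Of 22 epithelial genes 13 were positive, with SPINT2, a protease inhibitor, at 195, 207 and 219 and 371, 365 and 352 CPM and the desmosome gene DSP at 137, 105 and 111 and 163, 247 and 169.8 CPM. CDH1 (E-cadherin) was at most 5.32 CPM in all 6 libraries and EPCAM at most 0.443. The median of the epithelial list was 0.04, -0.10 without passage 3 replicate 2 and -0.03 without passage 2 replicate 2. Of 21 TGF-beta genes 13 were positive, with a median of 0.17 that became -0.02 without passage 2 replicate 1. In this list BAMBI, a decoy receptor, was lower at 11.8, 10.8 and 14.8 and 1.77, 3.41 and 2.15 CPM, and SMAD3, a signal carrier, was higher at 39.3, 47.3 and 42.1 and 86.7, 74.4 and 71.5 CPM. Their adjusted p-values in edgeR were 0.184 and 0.626. LTBP2, a matrix protein of the latent TGF-beta binding family, was also separated on the higher side, at 5.82, 12.7 and 11 and 22.5, 40.9 and 20.2 CPM. Of 18 YAP and TEAD targets 6 (33.3%) were separated on the higher side and 2 (11.1%) on the lower, against 8.12% and 6.12% of all genes, with a median of 0.24. They included NT5E, which makes adenosine at the cell surface, at 19.9, 94.4 and 75.1 and 287, 106 and 164 CPM.

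Genes of MHC class II presentation were low in both passages. Of 10 genes 8 were positive and 2 negative, the median was 0.76, and none passed, with 1 at an unadjusted p under 0.05 in edgeR. The replicates of 5 were separated on the higher side and of 0 on the lower, against 8.12% and 6.12% of all genes. CIITA, the coactivator that switches the class on, was at 0.143, 0.0938 and 0.0369 CPM in passage 2 and 2.82, 0.213 and 0.826 CPM in passage 3, with a log2 fold change of 3.78 ± 1.27 (SE) and an adjusted p of 0.499 in edgeR. HLA-DRA was at 2.2, 3.75 and 2.91 and 15.3, 6.4 and 6.87 CPM, and HLA-DPA1 at 3.63, 6.7 and 3.76 and 12.7, 7.73 and 8.99 CPM. These are single-digit levels for the most part. The passage 4 means were 15.2 CPM for CIITA, 202 for HLA-DRA and 438 for the invariant chain CD74, whose replicates overlapped between passages 2 and 3. Class I genes leaned the other way, with 13 of 18 negative. B2M, the light chain shared by class I molecules, was at 736, 827 and 1174 CPM in passage 2 and 599, 431 and 609.7 CPM in passage 3, separated on the lower side. HLA reads can map between these related genes.

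Interferon response genes leaned lower, with 29 of 35 negative and a median of -0.38. None passed, 5 members (14.3%) were separated on the lower side, against 6.12% of all genes, and 1 (2.9%), IFI35, on the higher, against 8.12%. IFI6 was at 53, 142 and 77.3 CPM in passage 2 and 33.1, 50.3 and 30.7 CPM in passage 3, and OAS1, a sensor of double-stranded RNA, at 7.69, 10.9 and 10.2 and 5.2, 6.35 and 4.53 CPM. Passage 2 replicate 2 was the highest library for both. The list's median ran from -0.52 to -0.10 as each of the 6 libraries was left out. Of 21 cytokine and NF-kB genes 13 were positive, with a median of 0.15. CSF1, the macrophage growth factor, was lower at 122, 102 and 57.4 and 18.6, 33.3 and 22.7 CPM, and LIF, an interleukin-6 family ligand, was higher at 39.6, 46.5 and 47.2 and 63.2, 72.1 and 78.5 CPM. Neither passed, with adjusted p-values of 0.243 and 0.81 in edgeR.

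In the unfolded protein list 14 of 20 genes were negative, with a median of -0.09 that became 0.02 without passage 3 replicate 3. The replicates of 5 (25%) were separated on the lower side and of 2 (10%) on the higher, against 6.12% and 8.12% of all genes. HERPUD1, which serves degradation at the endoplasmic reticulum, was at 253, 249 and 322 CPM in passage 2 and 149, 143 and 190.0 CPM in passage 3, and XBP1, a driver of the response, at 267, 279.8 and 329 and 187, 192 and 194 CPM. ASNS, asparagine synthetase, was lower too (-0.55 ± 0.25, SE). In the oxidative defence list 19 of 26 genes were negative, with FTL, the ferritin light chain, at 5193, 6343 and 6058 and 3724, 4086 and 3199.5 CPM beside SLC7A11. VEGFA, the angiogenic factor, was the 1 gene of 33 hypoxia and glycolysis genes with an unadjusted p under 0.05, at 52.7, 85.6 and 71.7 and 179, 159.7 and 164 CPM. The list's median was 0.06, and -0.02 without passage 2 replicate 2. The passage 4 mean of VEGFA was 387 CPM. Of 19 aldehyde dehydrogenase and retinoic acid genes 15 were positive, with a median of 0.43 that became 0.17 without passage 3 replicate 2. In 3 (15.8%) the replicates were separated on the higher side and in 1 (5.3%) on the lower, against 8.12% and 6.12% of all genes. Unlike most of the list, ALDH1A1, an aldehyde dehydrogenase that makes retinoic acid, was lower. It was at 533, 739.9 and 551 and 228, 323 and 284 CPM and stood at 36.2 in passage 4. Among 24 Notch and Wnt genes 11 were positive, with a median of -0.05 that became positive without passage 2 replicate 2 or passage 3 replicate 1. HES1, a Notch target, and WNT10A, a Wnt ligand, were lower as well (-0.71 ± 0.32 and -1.22 ± 0.54, SE). All 13 mitochondrially encoded genes were negative, with a median of -0.24, and none had an unadjusted p under 0.05. In 3 (23.1%) the replicates were separated on the lower side, against 6.12% of all genes. Without passage 3 replicate 2 that number was 9, against 13.1% of all genes. Nuclear respiratory chain genes had a median of -0.03 with 15 of 35 positive, and the sign of that median changed without passage 2 replicate 3, passage 3 replicate 2 or passage 3 replicate 3. The remaining lists, of cholesterol and fatty acid synthesis, S100 proteins, drug efflux and pancreatic cancer drivers, had medians between -0.14 and 0.09, of which drug efflux turned negative without passage 2 replicate 3.

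**Figure D3:**
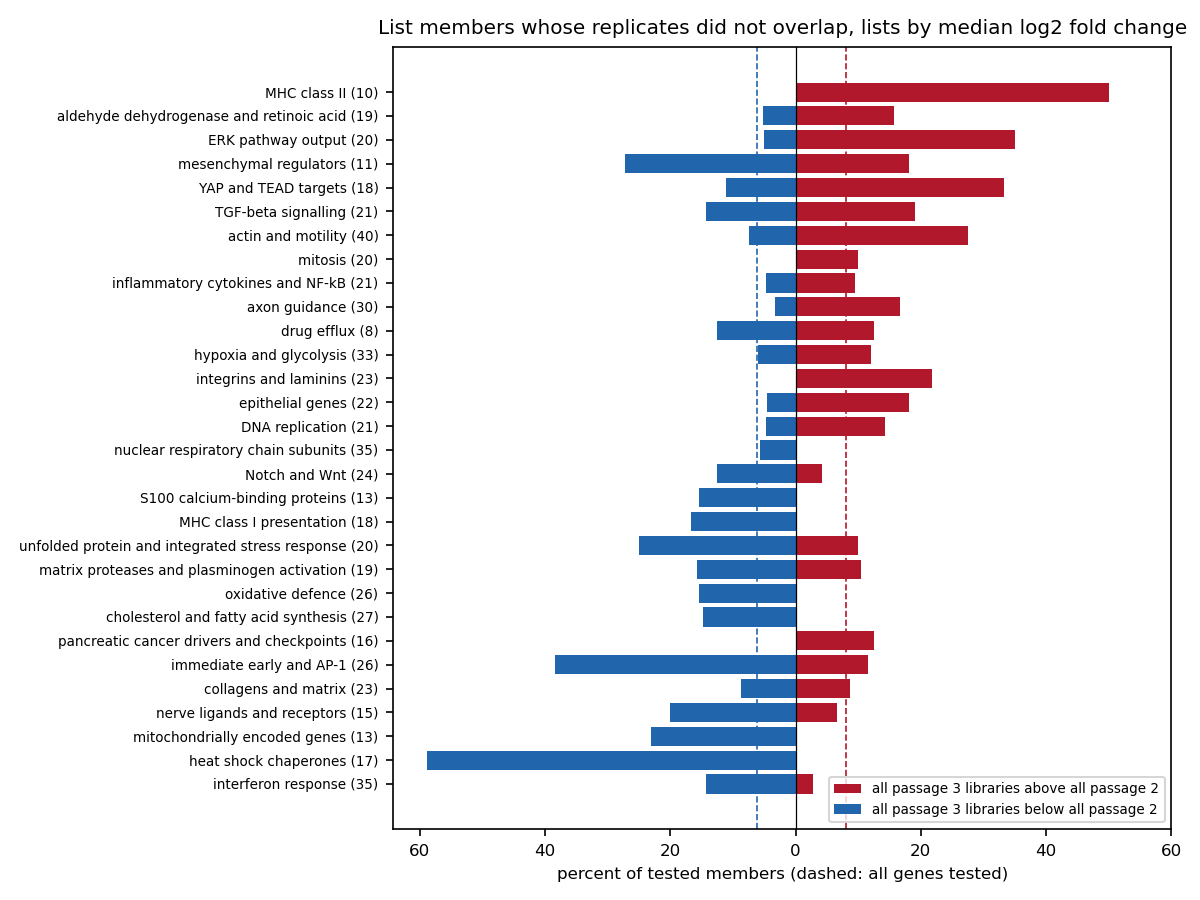
Percent of the tested members of each list whose passage 3 libraries all lay above (red) or all below (blue) the passage 2 libraries, with lists ordered by median log2 fold change and the number tested in brackets. Dashed lines mark 8.12% and 6.12% over all genes; the heat shock bar reaches 58.8% on the lower side and the MHC class II bar 50% on the higher.

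Chromosome 11 stood out by position, seen after the values were known and so given without a test. Its 873 tested genes had a median log2 fold change of 0.27 against 0.01 over all genes, and the next chromosomes were 22 at 0.12 and 17 at 0.10. Of these genes 670 (76.7%) were positive and 117 (13.4%) were higher at an unadjusted p under 0.05, against 50% and 3.64% of the genes of the other chromosomes. The shift ran along the whole chromosome: in all 17 blocks of about 50 neighbouring genes the median was positive, from 0.09 to 0.40. It was not equal in the 3 passage 3 libraries, whose medians relative to passage 2 were 0.36, 0.33 and 0.05, so replicate 3 stood near passage 2. In passage 4 the 3 libraries were between -0.02 and 0.04, and in passage 2 between -0.02 and 0.02. Without replicate 1, 2 or 3 of passage 3 the median of chromosome 11 was 0.22, 0.23 and 0.35. MYEOV, AHNAK, CCND1, CTTN and FOSL1 lie on this chromosome, and MYEOV differed by far more than the chromosome's median.

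**Figure D4:**
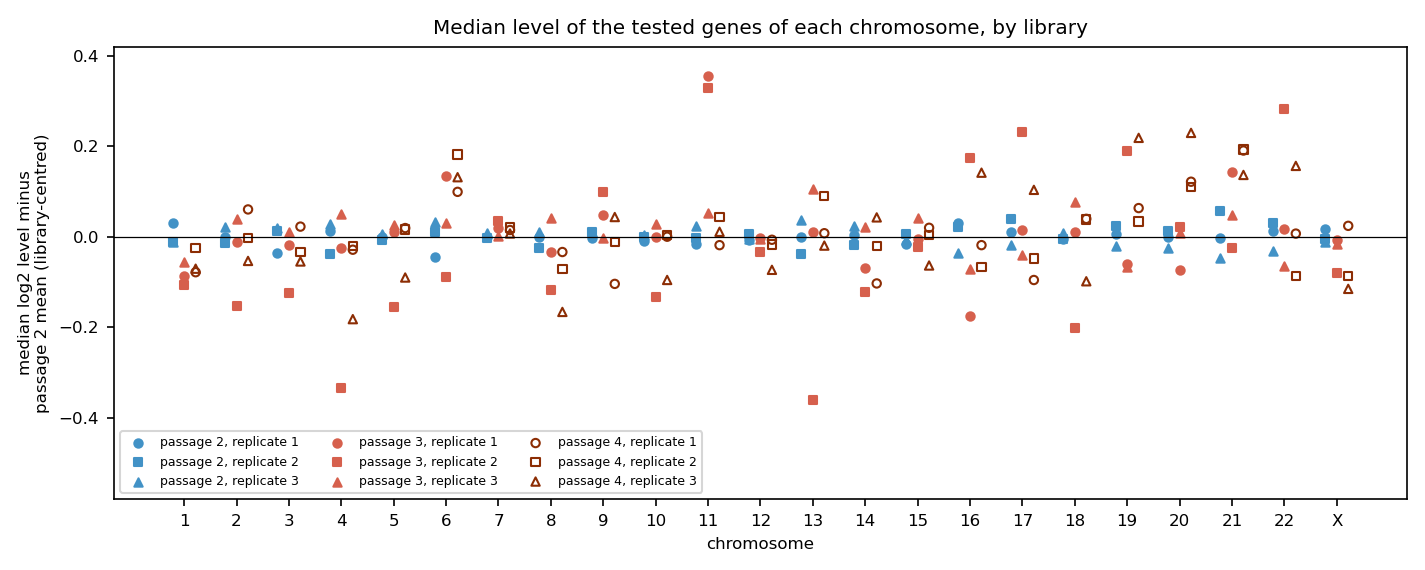
Median log2 level of the tested genes of each chromosome in the passage 2, 3 and 4 leader libraries, relative to the passage 2 mean, with 1 point per library. On chromosome 11 passage 3 replicates 1 and 2 lie at 0.36 and 0.33 and replicate 3 at 0.05, and passage 3 replicate 2 also departs from the other 2 passage 3 libraries on several chromosomes, among them 4 (-0.34) and 13 (-0.36) on the lower side and 17 (0.23) and 22 (0.28) on the higher.

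Passages 1 and 4 share no library with passages 2 and 3, although all 18 libraries share 1 estimate of spread. In that comparison 10.8% of the genes tested were called higher in passage 4 and 9.17% lower. MYEOV was called higher there too (1.67 on the log2 scale, adjusted p 0.00814 in edgeR), while HSPA6 was not called (-0.51, adjusted p 0.313). Of the 674 genes higher in passage 3 at an unadjusted p under 0.05, 42.9% were called higher in passage 4 against passage 1 and 3.41% were called lower. Of the 355 genes lower, 48.2% were called lower and 1.13% higher. Of the named genes, SEMA6B (6.81), PRNP (2.71), AHNAK (1.71), MEST (-5.15) and ACKR3 (-6.67) were called in that comparison in the direction of their passage 3 values. BAMBI (0.30), DNAJB1 (-0.13), BAG3 (-0.03) and HSPA1B (0.31) were not called there.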

How the data were processed

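Per the labels' protocols, complementary DNA was amplified with the SMART-Seq v4 kit (no strand information) and read in pairs. The authors deposited raw counts per gene. The submitters' processing notes name HTSeq 0.5.3, STAR 2.5.0a, cutadapt 1.6 and DESeq 1.22.1, and the build and annotation used are not given in the sources available here. Chromosomes were taken from GENCODE 29, which held 51812 of 57445 identifiers, and promoters from RefSeq. The 5 entries that name no gene, 37.3% to 60.6% of entries in the 6 libraries, stayed out of the tests.

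The comparison was fitted with edgeR 4.0.16 in R 4.3.3 (quasi-likelihood F test, TMM scaling, the edgeR expression filter, 1 mean for each of 6 groups over 18 libraries, Benjamini-Hochberg adjustment over 16187 genes). The biological coefficient of variation was 35.5%. Levels are CPM on TMM-scaled library sizes. Data were simulated for this comparison over the 16187 genes, with changes placed only in genes with a mean of at least 5 CPM. Of these changes, 23% of the 2-fold and 92% of the 4-fold ones were found, and 2 of 117 calls were false. Replicates differed by more than counting error in every pair (chi-square over its degrees of freedom 23.9 to 133).

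Named genes were those called that reached a mean of 5 CPM in 1 of the 2 groups and did not overlap, at most 14 per direction, filled up to 8 per direction by p where fewer were called, plus up to 4 members per list by p and 7 marker genes for levels. Members and lists were chosen with earlier results of these data known. Alternatives were other scalings, DESeq2 1.42.0, limma-voom (limma 3.58.1), no filter, fewer libraries, a replicate block and leaving out each library. Medians and separation counts without single libraries were added after the data were seen.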

Additional observations from a re-analysis of the deposited data

Results flagged for a closer look

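Reads that the counting step gave to no gene were above every parental library in all 6 libraries for 1 entry and in some of them for 2 more. Reads aligned to more than 1 place took 30.6%, 28.1% and 29.3% of entries in passage 2 replicates 1, 2 and 3 and 28.6%, 20.2% and 23.4% in passage 3, against 13.9% to 16.4% in the parental libraries. The other injected groups were above the parental range too. Laggers were at 27.8% to 32.6%, passage 1 leaders at 22.9% to 27.4% and passage 4 leaders at 22.3% to 25.8%. Unaligned reads took 11.2% in passage 2 replicate 1, 10.5% in passage 3 replicate 1 and 24.8% in passage 3 replicate 2, against 4.09% to 10.1%. Lagger replicates 2 and 3, at 12.6% and 16.5%, and passage 4 replicate 1, at 10.4%, were also above that range. Reads outside genes took 14.1% in passage 3 replicate 2, against 5.57% to 5.89%. For this entry passage 1 leaders, at 6.78% to 8.8%, and lagger replicate 2, at 8.79%, were above the parental range as well. The part of these reads in the comparison was not tested.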

How the results depend on the processing

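The number of called genes moved with the tool, the filter and the libraries fitted. The main fit called 2 of 16187 genes tested, RLE and upper-quartile scaling 2 each, DESeq2 143 (95 higher, 48 lower), limma-voom 24 (18 and 6), no filter on low counts 111 of 31738 (87 and 24), only the compared libraries 113 (74 and 39), and the replicate block 4 (2 and 2). The higher share of calls was 50% in the main fit, 66.4% with DESeq2, 75% with limma-voom, 78.4% with no filter and 65.5% with only the compared libraries. Both MYEOV and HSPA6 were among the calls in each of these. Leaving out 1 library gave 0 to 1 calls, MYEOV alone without passage 3 replicate 3, and 796 to 1261 genes at an unadjusted p under 0.05. Genes also called in the same direction in passage 4 against passage 1 numbered 1 of 2 in the main fit, 106 of 143 with DESeq2, 19 of 24 with limma-voom, 82 of 111 with no filter, 2 of 4 with the replicate block, 19 of 21 in a fit of only the leader groups of all 4 passages, and 0 to 1 with a library left out. The cause of these differences was not tested.

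Deviations of same-numbered libraries from their group means had correlations of -0.13, 0.01 and 0.001 between the passages. With 3 libraries a group, these values cannot decide whether the replicate numbers pair the samples. MYEOV kept a log2 fold change of 2.66 to 3.21 and HSPA6 of -2.59 to -2.31 as each library was left out. HSF1 ranged from -0.12 without passage 3 replicate 2 to 0.19, and CD79A from -0.59 without passage 3 replicate 3 to 3.70. Of 31 medians of lists and of chromosome 11, 0 changed sign with another scaling and 11 did when a library was left out. In data simulated for the main fit, with 1 spread per gene for all groups, 23% of 2-fold changes were found. These changes were placed only in genes with a mean of at least 5 CPM. Most 2-fold differences in such genes would thus be missed in that fit. Changes in genes below that mean and the other fits were not simulated.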

Other observations

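Counts of histone cluster genes, which encode core and linker proteins of chromatin, leaned lower in passage 3. This was seen after the values were known and so is given without a test. Of the 50 tested genes whose symbols begin with HIST1H to HIST4H, 39 had a negative log2 fold change, and the median was -0.44 against 0.01 over all genes. In 19 the replicates were separated on the lower side and in 0 on the higher, against 6.12% and 8.12% of all genes. With passage 3 replicate 2 left out, 24 were separated on the lower side, against 13.1% of all genes at that setting. In edgeR 12 were lower at an unadjusted p under 0.05, and 0 passed after adjustment. HIST1H2BK was at 234, 179 and 253 CPM in passage 2 and 99.8, 128 and 122 CPM in passage 3. The linker histone gene HIST1H1C was at 223, 174 and 255 and 107, 158 and 104 CPM. The parental means of both, 72.4 CPM for HIST1H2BK and 52.3 for HIST1H1C, lay below every library of passages 2 and 3. Reads can be shared among these closely related genes, and how fully the amplification kit captures their transcripts was not tested.

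STC1, which encodes the secreted glycoprotein stanniocalcin 1, had one of the wider differences outside the lists and was also picked out after its values were seen. It was at 3.1, 3.89 and 6.78 CPM in passage 2 and 353, 210 and 82.3 CPM in passage 3. The groups were far apart, with replicate 3 again the lowest of passage 3. The log2 fold change was 5.54 ± 1.06 (SE) with an adjusted p of 0.0701 in edgeR, so it did not pass. The passage 4 mean was 60.7 ± 52.4 CPM (SD, n = 3).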
